A study of Mus musculus with 20 samples.

Results

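Transcripts of 10 genes of chloride and anion transport were followed in the distal colon (DC) of mice fed increasing amounts of resistant potato starch (RPS). The genes were Ano9, its relatives Ano1, Ano5, Ano6, Ano7, Ano8 and Ano10, and the secretory genes Cftr, Best2 and Slc12a2, out of 26619 genes in the count table. Ano9 was chosen by its measured values, since its counts rose with the amount of RPS, and the other 9 were added by name to ask whether they followed it. The dose pattern of Ano9 is therefore given as a description with no test. All 10 genes passed the filter on low counts, which kept 17893 genes.

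The mice were C57BL/6 and went at weaning onto the Total Western Diet (TWD), a feed designed to resemble the nutrient intake of Americans. After 6 weeks, 5 mice stayed on the TWD (0% RPS) and 3 groups of 5 received the TWD with 2, 5 or 10% RPS (raw potato starch in the sample labels) for 3 more weeks. All 20 mice thus carried the Western diet background. RNA from whole pieces of DC was sequenced with 1 library per mouse, and the total count, in megacounts (M), lay between 31.3 and 35 M at 0% RPS, 24.5 and 31.1 M at 2%, 22.3 and 30.4 M at 5%, and 18.4 and 26.6 M at 10%. Every RPS library was shallower than every 0% RPS library, so depth and diet cannot be told apart from group means alone. The smallest count of any of the 10 genes in a mouse was 24, for Ano5, and the next smallest was 332, for Ano8.

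For 3 mice the labels disagree on the diet. The description gives 5% RPS for RS10_717, 10% for RS10_725 and 2% for RS10_748, where the treatment label gives 2%, 5% and 10%. The description label was used. The changes of Ano9 and Best2, 2 orders between genes and the trends of the listed genes are also given by the treatment label, and the trends also without these 3 mice. Mouse RS10_721 (5% RPS) stood apart from the others in pancreatic digestive enzyme transcripts, with a sum of 5748 counts per megacount (CPM) over the 7 measured genes of that list against at most 835.9 CPM in any other mouse (RS10_784, 10% RPS). Of the 7, Cela1 was at 366.5 CPM or more in every mouse. RS10_784 also held pancreatic transcripts, with Pnlip at 90.68 and Ctrb1 at 87.78 CPM against medians of 0.068 and 0.063 CPM over 20 mice. RS10_721 also had the lowest sum of smooth muscle markers, 6003 CPM over 8 genes. Markers of intestinal epithelium were abundant in every mouse, with a sum of 11010 to 17520 CPM over 8 genes including Epcam and Vil1. These 8 genes mark epithelium and do not by themselves tell DC from other parts of the gut. Hoxb13, a gene of the most posterior gut, was at 379.5 CPM or more in every mouse.

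The colon secretes chloride to draw salt and water into the lumen. Slc12a2 encodes NKCC1, the cotransporter that loads epithelial cells with chloride across the basolateral membrane, and Cftr encodes the cAMP-gated channel through which chloride and bicarbonate leave at the apical membrane. Best2 encodes bestrophin 2, an anion channel that in the mouse colon is found in goblet cells and carries bicarbonate. The anoctamins (TMEM16 proteins) are membrane proteins of a single fold with different tasks. Ano1 is a calcium-activated chloride channel that marks the interstitial cells of Cajal, the pacemaker cells of gut muscle. Ano6 is a calcium-activated phospholipid scramblase, which moves lipids between the leaflets of the membrane, and Ano9 is an epithelial family member linked to scrambling and cation conductance. Ano5 is best known from muscle, Ano7 from prostate, Ano10 from inherited ataxia, and Ano8 as a tether between the endoplasmic reticulum and the plasma membrane.

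Per kilobase of annotated exon, which is the scale on which levels of different genes can be set side by side, Ano1 was the most abundant of the 10 genes, with a mean of 47.8 ± 3.86 CPM per kb (SD, n = 20 mice). Best2 followed with 30.3 ± 7.88 CPM per kb, and Ano1 lay above Best2 in 19 of 20 mice. Best2 lay above Slc12a2 (15.0 ± 1.79 CPM per kb) in all 20 mice. The next 5 genes were close to one another in this order. Slc12a2 lay above Ano9 (13.3 ± 2.30 CPM per kb) in 15 of 20 mice, Ano9 above Cftr (12.2 ± 2.45 CPM per kb) in 13, Cftr above Ano7 (9.93 ± 1.90 CPM per kb) in 15, and Ano7 above Ano10 (8.27 ± 0.737 CPM per kb) in 14, so none of these neighbours were separated in every mouse. Ano10, Ano6 (3.83 ± 0.374 CPM per kb), Ano8 (2.16 ± 0.313 CPM per kb) and Ano5 (0.135 ± 0.0396 CPM per kb) followed in that order in all 20 mice.

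**Figure D1:**
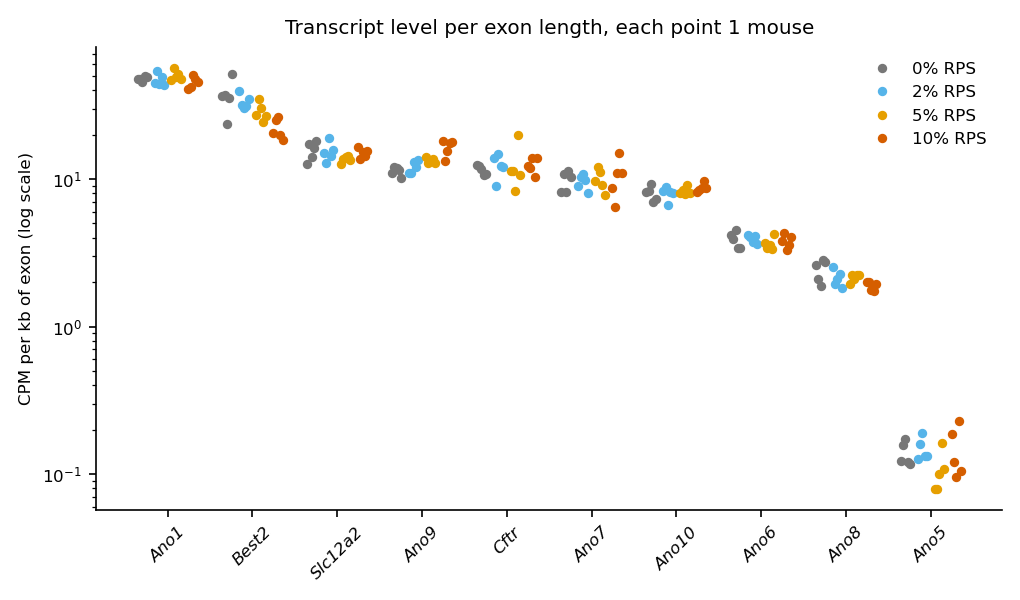
Level of each gene in CPM per kb of exon (vertical log axis) in each of 20 mice, coloured by diet, with genes ordered by their mean. Ano1 and Best2 lie highest and Ano5, at 0.0797 to 0.231 CPM per kb, lies far below the rest. The points of Best2 step down and those of Ano9 step up from 0 to 10% RPS.

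The order of 2 pairs looked different at the ends of the dose range. At 0% RPS, Slc12a2 lay above Ano9 in 5 of 5 mice and Ano9 above Cftr in 2 of 5. At 10% RPS, Slc12a2 lay above Ano9 in 1 of 5 mice and Ano9 above Cftr in 5 of 5. By the treatment label the counts at 10% were 2 of 5 and 5 of 5, and those at 0% were the same. The ratio of Ano9 to Best2 levels per kb was 0.328 ± 0.107 (SD, n = 5) at 0%, 0.366 ± 0.0573 at 2%, 0.473 ± 0.0773 at 5% and 0.770 ± 0.198 at 10% RPS. These counts and ratios contain the rise of Ano9 that chose the list and are descriptions.

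Ano9 (ENSMUSG00000054662) lies on the minus strand at chr7:140680854-140697758 of GRCm39. In CPM, its level was 57.6, 63.0, 62.0, 60.4 and 53.7 in the 5 mice at 0% RPS. At 2% RPS it was 57.6, 57.6, 68.5, 63.5 and 71.2 CPM, the last in RS10_748. At 5% it was 73.6 (RS10_717), 67.1, 69.9, 72.3 and 67.2 CPM, and at 10% it was 94.8 (RS10_725), 69.4, 80.8, 91.6 and 93.8 CPM. The 0% and 2% mice overlapped, all 5% mice lay above all 0% mice, and the lowest 10% mouse (RS10_727) lay among the 5% mice. The fitted change from 0 to 10% RPS was 0.54 on the log2 scale, or 1.45-fold, which is just under the 1.5-fold threshold used for calls. By the treatment label the means were 59.4, 64.2, 74.3 and 81.4 CPM at 0, 2, 5 and 10% RPS and the log2 change was 0.46, and without the 3 mice with disagreeing labels it was 0.51. A lncRNA on the other strand, Gm72431, shares 469 exon bases with Ano9 and had no row in the count table, and whether counting used the strand is not given in the sources used here.

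**Figure D2:**
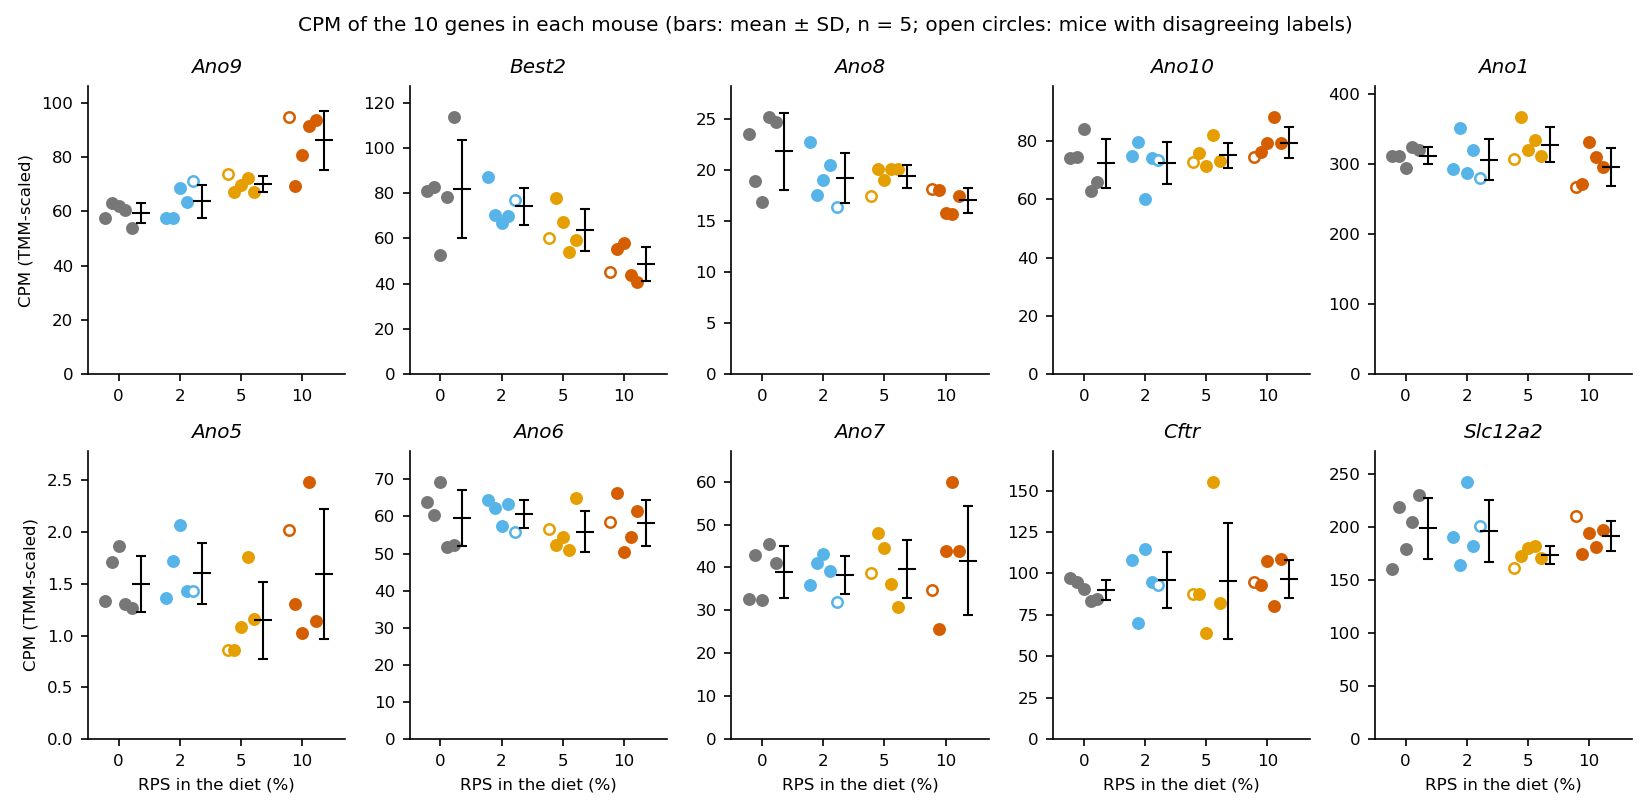
CPM of each of the 10 genes (vertical axes from 0) in each mouse by RPS percent (horizontal axes), with the mean and SD of 5 mice beside the points and open circles for the 3 mice with disagreeing labels. The mean of Ano9 is higher and that of Best2 lower at each higher dose. Ano9, which was chosen for its rise with dose, is the only one of the 10 genes whose 0% and 10% mice do not overlap. Of all genes tested, 2.28% showed no overlap. In Cftr, mouse RS10_721 stands at 155 CPM, above all others.

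Best2 (ENSMUSG00000052819, minus strand, chr8:85733831-85741160) was the only one of the other 9 genes with a dose trend past the threshold, and it fell. In CPM, its level was 81.2, 82.8, 52.6, 78.5 and 114 in the 0% mice and 87.3, 70.2, 67.0, 69.9 and 77.2 in the 2% mice. It was 60.2, 77.8, 67.4, 53.8 and 59.3 CPM in the 5% mice and 45.2, 55.6, 58.0, 43.9 and 40.9 CPM in the 10% mice. The 10% mice lay below every 2% mouse, and 3 of 5 lay below every 0% mouse, since 1 control (RS10_704) had only 52.6 CPM. The mean went from 81.8 ± 21.7 CPM (SD, n = 5) at 0% to 74.3 ± 8.17 at 2%, 63.7 ± 9.22 at 5% and 48.7 ± 7.60 CPM at 10% RPS. The slope was -0.075 ± 0.014 log2 units per percent RPS (SE), an estimated change of -0.75 over the whole range (95% interval -1.03 to -0.47), with an adjusted p of 0.0117 in edgeR over all 17893 genes.

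The trend of Best2 depended on few mice and on the labels. By the treatment label the slope was -0.055 with an adjusted p of 0.214, and without the 3 mice with disagreeing labels it was -0.071 with an adjusted p of 0.0569. Without RS10_784 the adjusted p was 0.0542, and with any other single mouse left out it stayed at or under 0.05. The slope was negative in all these fits. Compared directly, 10% against 0% RPS gave a log2 fold change of -0.75 ± 0.15 (SE), 0.595-fold, and an adjusted p of 0.0659 in edgeR, which misses the threshold, while DESeq2 gave -0.74 and 0.00128. Best2 is also on a list of DC genes that the study itself drew from these libraries, so its fall here is not independent evidence. Because whole tissue was sequenced, fewer cells of a type and less RNA per cell cannot be told apart. Of the 8 goblet cell markers, including Muc2 and Tff3, 0 passed the trend test in edgeR, against 2.10% of all genes tested. At 10% RPS, 6 of the 8 had a positive and 2 a negative log2 fold change, with a median of 0.27. Their summed level was 8262 to 12650 CPM at 0% and 8882 to 17080 CPM at 10% RPS. Whether the number of goblet cells changed was not tested.

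Ano8 (ENSMUSG00000034863, minus strand, chr8:71927360-71938752) had the next largest difference, and it was also negative. In CPM, it stood at 23.5, 18.9, 16.8, 25.2 and 24.7 in the 0% mice and at 22.7, 17.5, 19.0, 20.5 and 16.4 in the 2% mice. It stood at 17.5, 20.04, 19.0, 20.1 and 20.1 CPM at 5% and at 18.1, 18.1, 15.8, 15.6 and 17.4 CPM at 10% RPS. The 10% and 0% mice overlapped, with 2 of 5 mice at 10% below every control. The log2 fold change at 10% RPS was -0.36 ± 0.11 (SE, 95% interval -0.59 to -0.13) with an adjusted p of 0.124, and the slope of -0.032 ± 0.010 per percent RPS had an adjusted p of 0.0911. DESeq2 gave adjusted p values of 0.0661 and 0.0579, so the difference was not called by either tool. Without control RS10_704 the edgeR trend had an adjusted p of 0.0421. Ano8 shares 1394 exon bases with Dda1 on the opposite strand, and Dda1 had 29366 counts over the 20 mice against 11046 for Ano8. Its own mean was 50.8 ± 3.85 CPM (SD, n = 5) at 0% and 52.3 ± 5.77 CPM at 10% RPS, and how reads in the shared bases were assigned is not given in the sources used here.

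The other anoctamins overlapped across the 4 diets and did not pass any test. Ano1 (ENSMUSG00000031075, chr7:144142278-144305711), the chloride channel of pacemaker cells, stood at 294 to 324 CPM at 0%, 280 to 351 CPM at 2%, 307 to 367 CPM at 5% and 267 to 331 CPM at 10% RPS. Its log2 fold change at 10% was -0.079 (95% interval -0.23 to 0.077, adjusted p of 0.663). The coefficient of variation between its control mice, 3.78%, was the smallest of the 10 genes at 0% RPS. Among mice of a diet, deviations of Ano1 and of the summed 6 markers of the interstitial cells of Cajal had r = 0.41 over 20 mice. With the summed markers of enteric glia, r was -0.49. The 6 markers of the interstitial cells of Cajal summed to 505 to 605 CPM at 0% and 411 to 571 CPM at 10% RPS. Of these, 0 of 6 passed the trend test, against 2.10% of all genes tested.

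Ano6 (ENSMUSG00000064210, chr15:95688613-95873353), the scramblase, ranged from 51.9 to 69.4 CPM at 0%, 55.7 to 64.4 CPM at 2%, 51.0 to 65.1 CPM at 5% and 50.4 to 66.2 CPM at 10% RPS. Its log2 fold change at 10% was -0.035 (95% interval -0.22 to 0.15, adjusted p of 0.897). It shares 430 exon bases with the lncRNA Gm49172 on the other strand, which had 11274 counts against 33097 for Ano6. Ano10 (ENSMUSG00000037949, chr9:122004940-122124498) had 63.0 to 84.2 CPM at 0%, 60.2 to 79.9 CPM at 2%, 71.6 to 82.1 CPM at 5% and 74.5 to 88.4 CPM at 10% RPS. Of the 6 relatives, it had the largest positive estimate, a log2 fold change at 10% of 0.14 (95% interval -0.033 to 0.30, adjusted p of 0.440) and a slope of 0.014 per percent RPS (adjusted p of 0.283). The means of Ano10 were 72.4 ± 8.35, 72.5 ± 7.34, 75.2 ± 4.20 and 79.5 ± 5.34 CPM (SD, n = 5) in order of dose, and these steps are within the spread between mice.

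Ano7 (ENSMUSG00000034107, chr1:93301652-93332025), the anoctamin known from prostate, had 32.4 to 45.4 CPM at 0%, 31.9 to 43.2 CPM at 2%, 30.9 to 48.1 CPM at 5% and 25.6 to 60.0 CPM at 10% RPS. Both extremes were at 10%, where the coefficient of variation was 30.7% against 15.5% at 0% RPS. The log2 fold change was 0.10 (95% interval -0.26 to 0.46, adjusted p of 0.830). Within diets its deviations ran with the summed goblet cell markers (r = 0.66 over 20 mice), and the highest mouse for Ano7, RS10_731 at 60.0 CPM, also had the highest Muc2 (4413 CPM) and Clca1 (4032 CPM). The prostate gene Pbsn was at 0 in 7 of the 20 mice and had a median of 0.12 CPM, but it reached 77.7 CPM in RS10_707 (0% RPS). Ano5 (ENSMUSG00000055489, chr7:51160595-51249083) was near the lower limit of detection, with 0.859 to 2.48 CPM, or 24 to 64 counts, over all mice. Its log2 fold change at 10% was 0.099 (95% interval -0.41 to 0.61, adjusted p of 0.892), the widest interval of the anoctamins tested. Markers of skeletal muscle, where Ano5 is best known, summed to between 16.7 and 53.6 CPM over 7 measured genes.

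The apical channel Cftr (ENSMUSG00000041301, plus strand, chr6:18170686-18322767) gave no detectable difference between diets. In CPM, it stood at 97.2, 94.9, 90.6, 83.3 and 84.4 in the 0% mice and at 108, 70.0, 114, 94.7 and 93.2 in the 2% mice. It stood at 87.6, 87.4, 64.1, 155 and 82.2 CPM at 5% and at 94.5, 92.9, 107, 80.1 and 108 CPM at 10% RPS. The value of 155 CPM came from RS10_721, the mouse with the most pancreatic transcripts, and the next highest 5% mouse had 87.6 CPM. RS10_721 also had the highest sum of epithelial markers, 17520 CPM, and the lowest sum of smooth muscle markers, 6003 CPM. The part of any of these in the Cftr value was not tested. Without RS10_721 the groups still overlapped. The log2 fold change of Cftr at 10% RPS was 0.10 (95% interval -0.26 to 0.46, adjusted p of 0.830).

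Slc12a2 (ENSMUSG00000024597, plus strand, chromosome 18), which supplies the chloride to be secreted, stood at 160, 219, 179, 205 and 230 CPM in the 0% mice and at 191, 164, 243, 182 and 201 CPM in the 2% mice. It stood at 161, 173, 180, 182 and 171 CPM at 5% and at 210, 174, 195, 181 and 198 CPM at 10% RPS. The groups overlapped at every dose. The log2 fold change at 10% was -0.051 (95% interval -0.25 to 0.15, adjusted p of 0.851), and at 5% it was -0.20 (95% interval -0.40 to 0.0065, adjusted p of 0.555).

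Whether the relatives and secretory genes followed Ano9 was then counted over the 9 tested genes. At 10% against 0% RPS, 0 of 9 were called by edgeR (a fold of 1.5 or more with an adjusted p of 0.05 or less), against 0.0391% of all genes tested, with 2 of 9 (Best2 and Ano8) and 15.2% of all genes at an unadjusted p under 0.05. DESeq2 called 1 of 9, Best2, as lower, and it called 0.409% of all genes it tested as lower. That share leaves out genes called as higher, while the edgeR share counts both directions. At 5% RPS, 0 of 9 and 0% of all genes were called, with 1 of 9 (Best2) and 9.19% of all genes at an unadjusted p under 0.05. DESeq2 called 0 of 9 there, against 0.156% of the genes it tested. At 2% RPS, 0 of 9 and 0% of all genes were called, and at an unadjusted p under 0.05 there were 0 of 9 and 1.41% of all genes. By DESeq2 it was 0 of 9, against 0.00386%. For the linear trend, 1 of 9 passed, against 2.10% of all genes, and it was among the falling ones (0.950% of all genes) and not the rising ones (1.15%). The same count of 1 came from DESeq2, against 6.02% of the genes it tested. At an unadjusted p under 0.05 in edgeR were 2 of 9, against 19.1% of all genes. For a difference of any kind between diets (3 degrees of freedom), 0 of 9 passed in edgeR, against 0.0727%, with 2 of 9 and 10.6% of all genes at an unadjusted p under 0.05. DESeq2 called 1 of 9 (Best2), against 2.01%. None of the 9 had all 10% mice on one side of all 0% mice, a pattern that 2.28% of all genes showed.

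Of these 9 genes, 4 had a positive and 5 a negative log2 fold change at 10% RPS, and their median was -0.035 beside -0.015 for all genes tested. For 7 of 9 the 95% interval spanned 0. For 8 of 9 the upper end of the interval lay below the 0.54 estimated for Ano9, with Ano5 as the exception. This sets each gene beside a value that was chosen for being high, and the difference between genes was not tested.

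**Figure D3:**
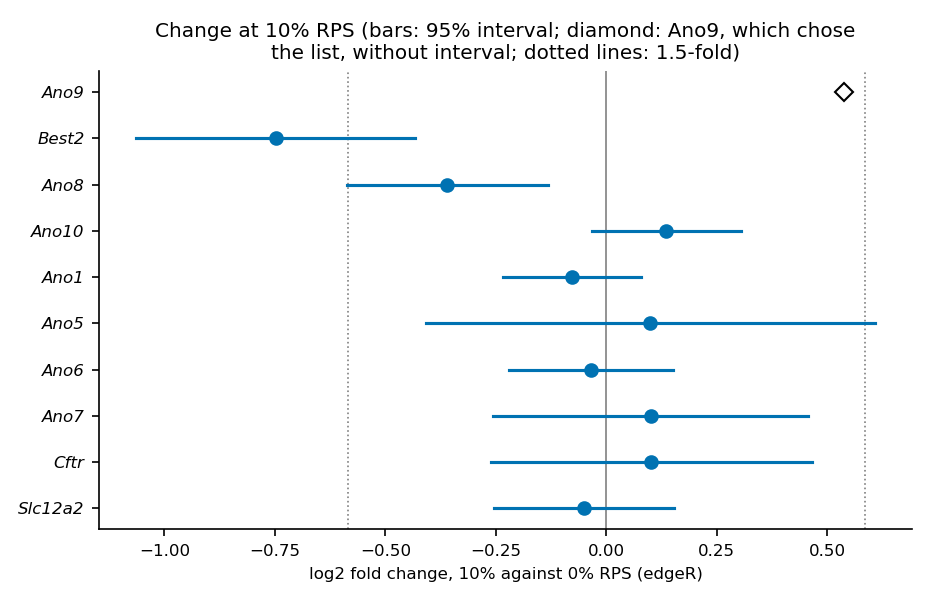
Log2 fold change at 10% against 0% RPS from edgeR (horizontal axis) for each gene, with 95% intervals for the 9 tested genes, the estimate alone for Ano9 (diamond) and dotted lines at 1.5-fold. Best2 at -0.75 and Ano8 at -0.36 lie left of 0 with their whole intervals, and the other 7 intervals include 0.

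The dose pattern left the variation among mice of a diet unused, so it was examined whether a mouse with more Ano9 than its diet mean also had more or less of the other genes. Deviations of log2 CPM from the diet mean were correlated over the 20 mice, and p values came from 100000 permutations within diets, adjusted over the 9 relations. Best2 was lower where Ano9 was higher (Pearson r = -0.57, permutation p = 0.00571, adjusted p = 0.0514; Spearman rho = -0.61, permutation p = 0.00934, adjusted p = 0.0841), which misses the threshold after adjustment. The correlation was negative in 4 of 4 diets, and without RS10_708 and RS10_727, the 2 mice farthest from the median Ano9 deviation, r was -0.46. With diet means taken by the treatment label, r was -0.75 (adjusted p = 0.00216), and without the 3 mice with disagreeing labels it was -0.64 (adjusted p = 0.0533). Whichever label is wrong sets these 3 mice against the mean of another diet. Deviations by that label then hold part of the dose pattern that chose Ano9. Which label is wrong is not known, so neither r over all 20 mice can be read as within diets alone. All points share 1 library per mouse, and over all other genes tested the same r had a median of -0.030, and the middle 95% of genes lay between -0.60 and 0.60. An r as low as that of Best2 was seen in 3.48% of genes.

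**Figure D4:**
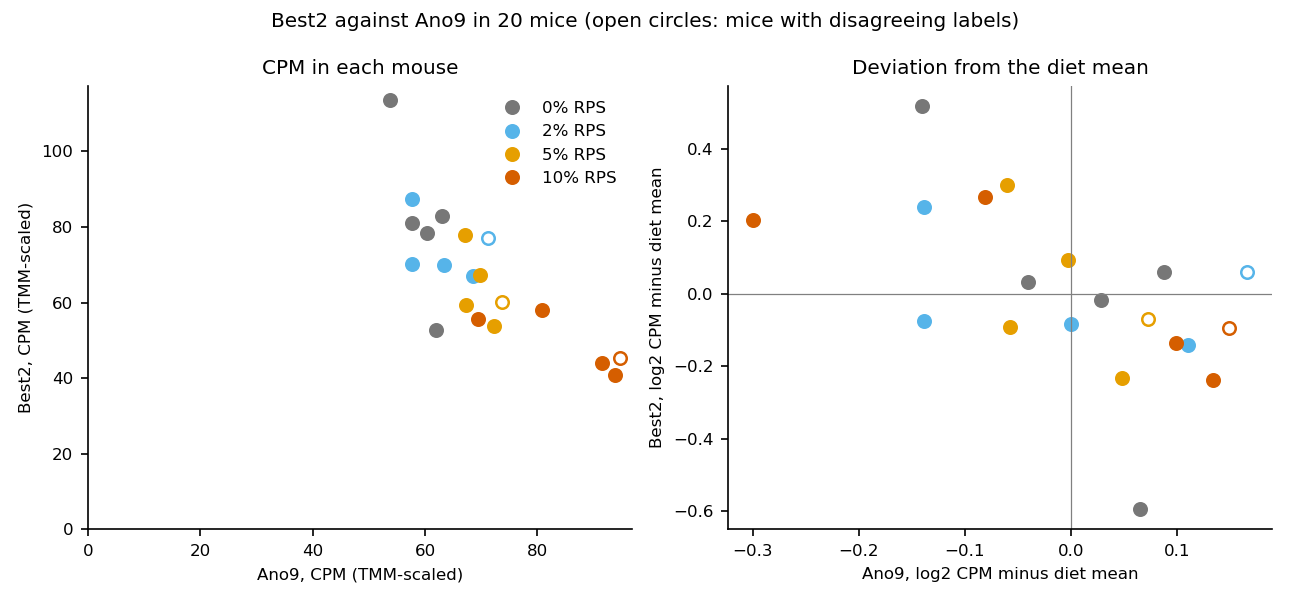
Best2 against Ano9 in 20 mice, as CPM with axes from 0 (left) and as deviations of log2 CPM from the diet mean (right), coloured by diet, with open circles for the 3 mice with disagreeing labels. On the left the 10% mice lie lowest and farthest right. On the right the points run from upper left to lower right with r = -0.57.

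The other 8 genes gave weaker relations to Ano9 within diets, with adjusted p values of at least 0.317. Ano8 had r = -0.41 (adjusted p = 0.317), negative in 4 of 4 diets. Ano5 had r = 0.38, Slc12a2 0.36, Ano7 0.32, Cftr 0.19, Ano10 0.00083, Ano6 -0.21 and Ano1 -0.27. Leaving out the same 2 mice moved Ano1 to -0.56 and Ano7 to 0.013. Between members, the strongest pairs within diets were Ano1 with Ano7 (r = 0.61), Ano10 with Slc12a2 (r = -0.61) and Ano6 with Ano7 (r = -0.60), given as descriptions over 20 mice.

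Among 11974 other genes averaging 5 CPM or more, those most like Ano9 within diets were Zbtb6 (r = 0.83), Rfwd3 (r = 0.82), Donson (r = 0.81), C1galt1 (r = 0.81) and Wdr44 (r = 0.80). C1galt1 encodes the enzyme that extends mucin-type O-glycans, and Rfwd3 and Donson act in DNA replication and repair. The least like it were Ppp1r3e (r = -0.88), Crat (r = -0.84) and Foxf2 (r = -0.84), where Crat is a mitochondrial acyl transferase and Foxf2 a transcription factor of gut mesenchyme. None of these 8 had a dose trend past the threshold. The closest to it were Crat, at an adjusted p of 0.0617 with means of 80.8, 75.0, 70.9 and 68.7 CPM in order of dose, and C1galt1, at 0.0759 with means of 124.6, 126.8, 130.1 and 156.2 CPM. The genes beside Ano9 did not rise with it. Sigirr, which dampens interleukin-1 and Toll-like receptor signalling and lies 336 bases away on the same strand, fell from 53.4 ± 4.89 CPM (SD, n = 5) at 0% to 45.3 ± 2.33 CPM at 10% RPS, with a slope of -0.024 per percent and an adjusted p of 0.0438. By the treatment label this p was 0.318, and without the 3 mice with disagreeing labels 0.12. Ptdss2, a phosphatidylserine synthase 4536 bases away on the other side, had 34.1 ± 2.08 and 29.2 ± 0.962 CPM (SD, n = 5) and an adjusted p of 0.113 for the trend.

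The wider set of genes for moving chloride was examined by lists that were written by function. Earlier results of these data were known when the lists were chosen. The counts over the lists are therefore descriptions and not independent evidence. Of all 17893 genes tested, 2.10% passed the trend test, and each count below stands beside that share. Of 5 other anoctamins and bestrophins, 4 passed the filter (Ano2, Ano3, Ano4 and Best1), their summed level with the fifth was at most 5.75 CPM in any mouse, and 0 passed the trend test. Of 10 measured members of the TMC and TMEM63 families, which are related in structure to the anoctamins, 1 passed. Tmc5 rose from 68.9 CPM at 0% to 94.4 CPM at 10% RPS, a log2 fold change of 0.46 ± 0.12 (SE), with an adjusted trend p of 0.0191. Of 12 genes for basolateral ion supply, among them the potassium channels Kcnq1 and Kcnn4, 0 passed, and their log2 fold changes lay between -0.20 and 0.29 with a median of 0.033. Of 14 other chloride channels tested, including the Clcn and Lrrc8 families, 0 passed, with a median of -0.0044.

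The list of the apical anion pathway had 10 tested genes, most of them Clca genes. Of the 10, 9 had a positive log2 fold change at 10% RPS, beside 8379 of all 17893 genes tested. That count rests mainly on the Clca family and is not a count over unrelated genes. The trend test was passed by 1 of the 10, against 2.10% of all genes tested. Slc26a3 encodes an exchanger that takes chloride up from the lumen in return for bicarbonate, so the gene that rose works in absorption. It rose from 1102 CPM at 0% to 1633 CPM at 10%, a log2 fold change of 0.57 ± 0.098 (SE) with an adjusted p of 0.0155, short of a 1.5-fold call, and an adjusted trend p of 0.00423. The Clca genes encode secreted proteins first named as calcium-activated chloride channel regulators. Clca1, a goblet cell product on the study's own gene list, had means of 1732, 1731, 2346 and 2923 CPM in order of dose and missed the threshold in edgeR (adjusted trend p of 0.0529; 0.00646 in DESeq2), and so did Clca4a (0.0868; 0.0202 in DESeq2). Of 17 regulators of chloride secretion, 1 passed, against the same 2.10%. This was Nherf1, a scaffold that holds Cftr and the sodium/hydrogen exchanger NHE3 at the apical membrane. It rose from 189.5 CPM at 0% to 267.1 CPM at 10% RPS, a log2 fold change of 0.50 ± 0.12 (SE), with an adjusted trend p of 0.0239. Gucy2c, the receptor of guanylin, and its ligand genes Guca2a and Guca2b were not called, with adjusted trend p values of 0.228, 0.379 and 0.753.

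**Figure D5:**
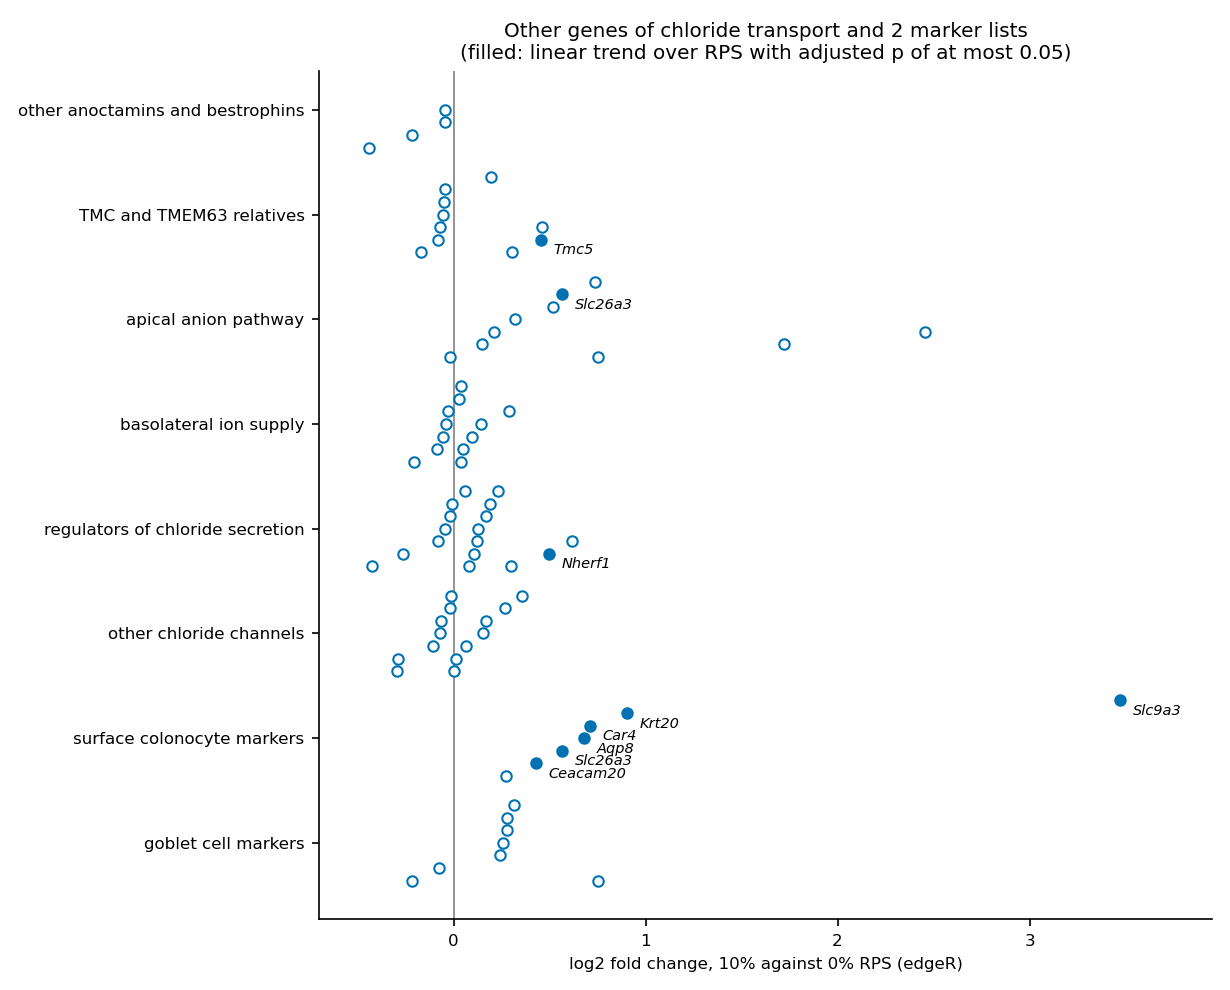
Log2 fold change at 10% against 0% RPS from edgeR (horizontal axis) for each tested gene of 6 lists on chloride transport and of 2 marker lists (rows, with points spread vertically for legibility). Filled and named points are genes with a linear trend at an adjusted p of at most 0.05. Slc26a3, Tmc5 and Nherf1 are filled among the transport lists, 6 of 7 surface colonocyte markers are filled, and 0 of 8 goblet cell markers are. Of all genes tested, 2.10% had such a trend. Slc26a3 and Clca1 each stand in 2 rows.

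Markers of surface colonocytes, the mature absorptive cells at the top of the crypt, moved with RPS. Of 7 tested, 6 rose with dose past the threshold, against 1.15% of all genes tested. They were Car4, Slc26a3, Aqp8, Krt20, Ceacam20 and Slc9a3, with adjusted trend p values from 0.00214 to 0.0372, and Lypd8 had an adjusted p of 0.071. By the treatment label 0 of these 6 passed, and without the 3 mice with disagreeing labels 2 of 6 did (Car4 and Slc26a3). The 2 highest values of Slc9a3 were 186.6 CPM in RS10_721 and 147.8 CPM in RS10_784, beside a median of 18.92 CPM over 20 mice. These are the mice with the most pancreatic transcripts. Aqp8, Car4, Krt20 and Slc9a3 are also on the study's own gene lists for the DC, so the direction is not independent evidence. The summed level of this list was 11350 to 14360 CPM at 0% and 14380 to 17440 CPM at 10% RPS, and it was 11370 to 13290 CPM at 2% and 12550 to 15800 CPM at 5%. Within diets, Ano9 had r = 0.45 with this sum, 0.56 with the goblet cell sum and 0.63 with the sum of crypt base and cycling cell markers, while Best2 had r = -0.43, -0.21 and -0.29 with the same sums over 20 mice. Best2 had r of larger size with other sums. These were 0.57 with markers of the interstitial cells of Cajal, -0.57 with epithelium and -0.55 with squamous and anal epithelium. Crypt base and cycling cell markers themselves had 0 of 8 past the trend test, against 2.10% of all genes tested. Hoxb13, a gene of the most posterior gut, stood on the list of prostate and seminal vesicle markers. It fell from 520.4 CPM at 0% to 413.8 CPM at 10% RPS (adjusted trend p of 0.0425). Of 4 tested genes of that list, it was the 1 with a falling trend, against 0.950% of all genes tested. All 4 had a negative log2 fold change at 10% RPS. The part of these markers in the dose patterns of Ano9 and Best2 was not tested.

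The trends of the listed genes depended on the labels of the 3 mice. Besides Best2, 10 genes of the lists or beside Ano9 were past the trend threshold, namely Aqp8, Car4, Ceacam20, Hoxb13, Krt20, Nherf1, Sigirr, Slc26a3, Slc9a3 and Tmc5. By the treatment label 0 of the 10 were past it, with adjusted p values from 0.168 to 0.33, and so were 0 of all genes tested, against 375 by the description label. Without the 3 mice, 3 of the 10 were past it (Car4 at 0.0162, Slc26a3 at 0.027 and Nherf1 at 0.0426), and so were 56 of all genes. Every slope kept its sign in these fits. With each mouse left out in turn, Car4 and Slc26a3 passed in all 20 fits. Tmc5 passed in 19 (not without RS10_784), Aqp8 in 18 (not without RS10_729 or RS10_784), Krt20 in 18 (not without RS10_708 or RS10_784), Nherf1 in 18 (not without RS10_731 or RS10_784) and Ceacam20 in 17 (not without RS10_725, RS10_729 or RS10_784). Slc9a3 passed in 9 of 20 fits, Sigirr in 8 and Hoxb13 in 7, with adjusted p values of up to 0.102, 0.11 and 0.116.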

How the data were processed

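The data were 20 DC libraries, 1 per mouse, made with a stranded poly(A) kit and sequenced as single-end reads. The authors trimmed the reads, mapped them to GRCm39 in CLC Genomics Workbench and deposited raw counts per gene. No values were normalised or pooled. The annotation release and the treatment of strand and of reads matching several genes are not given in the sources used here, so genes that overlap may share counts. The labels name no batch, and mouse numbers are unique, so nothing pairs mice across diets. Mice are separate animals.

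Symbols, positions (1-based) and exon lengths came from GENCODE vM39 on GRCm39, which held 26338 of 26619 identifiers. In R 4.3.3, edgeR 4.0.16 (filterByExpr with a minimum count of 10, TMM scaling, glmQLFit with robust empirical Bayes, glmQLFTest) was run in 1 fit over the 4 diets, with a second fit for the slope over RPS percent. P-values were adjusted by Benjamini-Hochberg over all 17893 tested genes. Calls needed an adjusted p of at most 0.05 and, between diets, a fold of at least 1.5, as in the published DESeq2 analysis. The first alternative was DESeq2 1.42.0. CPM are deposited counts per megacount of the TMM-scaled library size, with a prior count of 2 on the log2 scale. CPM per kb divides by the union of annotated exons.

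The other alternatives were RLE scaling, no filter, the treatment label, omission of the 3 mice with disagreeing labels, each mouse left out, thinning to the smallest library, no robust step, no fold threshold, only the diets compared, and a prior count of 0.5. The treatment label, the omission of the 3 mice and the mice left out in turn were applied to the listed genes after the data were seen. The edgeR procedure was tested on simulated data before use. The genes and lists were chosen with earlier results of these data known. Outside the 10 genes, the genes named were those past the trend threshold on a list, the 5 most and 3 least like Ano9 within diets at a mean of at least 5 CPM, the neighbours of Ano9, overlapping genes and markers in which a library stood apart. Clca1, Clca4a, Gucy2c, Guca2a, Guca2b, Lypd8, Muc2, Tff3, Epcam, Vil1, the other anoctamins, Best1 and the basolateral genes were named outside that rule after their values were seen. No sequences are shown.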

Additional observations from a re-analysis of the deposited data

Results flagged for a closer look

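Within a diet, 1 mouse stood far from the other 4 in 1 of 40 comparisons (10 genes in 4 diets). It was Cftr at 5% RPS, where RS10_721 had 155.3 CPM and the next mouse 87.63 CPM. Chance alone would flag about 2 of 40. RS10_721 is the mouse with 5748 CPM of pancreatic transcripts, whose defining genes Pnlip, Cpa1 and Ctrb1 stood at 1108, 604.8 and 1060 CPM there and at no more than 90.68 CPM elsewhere (RS10_784). The same mouse had the highest sum of epithelial markers, 17520 CPM, and the lowest of smooth muscle markers, 6003 CPM. The part of any of these in the Cftr value was not tested. Within diets, Cftr deviations had r = 0.73 with the pancreatic sum over 20 mice and 0.12 over the 19 without RS10_721. Over 20 mice, r was 0.54 with the epithelial sum, -0.615 with smooth muscle and -0.64 with skeletal muscle.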

How the results depend on the processing

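Of the 9 tested genes, the number called at 10% RPS was 0 in the main analysis, 1 with DESeq2 (Best2), and 0 to 1 with each mouse left out (1 without RS10_703, RS10_704, RS10_721 or RS10_727, Best2 each time). The number with a linear trend was 1, but 0 by the treatment label and 0 without the 3 mice with disagreeing labels, and 0 to 2 with each mouse left out (2 without RS10_704, 0 without RS10_784). The number with any diet difference was 0, 1 with DESeq2, and 0 to 1 with each mouse left out (1 without RS10_704). The number related to Ano9 within diets was 0, 1 by the treatment label, and 0 to 1 with each mouse left out (1 without RS10_703, RS10_712, RS10_748 or RS10_724, Best2 each time). By whichever label is wrong, the deviations may hold part of the dose pattern. The counts at 5% and 2% RPS were 0 under every alternative run. With every library thinned to the smallest total, the count was 0 at 10% RPS and 1 for the trend (Best2), as in the main analysis. The log2 fold changes at 10% RPS were then 0.55 for Ano9 and -0.73 for Best2. Small log2 fold changes at 10% RPS turned direction in 6 fits. Ano5 was -0.014 by the treatment label, and with each mouse left out it ran from -0.119 (without RS10_731) to 0.225, Ano6 from -0.0775 to 0.0282 (positive without RS10_704, and 0.0145 without RS10_729), Ano7 from -0.0682 (without RS10_731) to 0.239, and Slc12a2 from -0.12 to 0.00715 (without RS10_708). None of these values was past the threshold, and the causes were not tested. No paired analysis was possible because mouse numbers are unique to an animal. Ano5 had 24 to 64 counts per mouse, a coefficient of variation of 32.3% at 5% and 39.5% at 10% RPS, and an interval at 10% that includes the change of Ano9; the cause of its width was not tested.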
